A study of Homo sapiens with 18 samples.

Results

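The mitochondrial ribosome is built in the matrix from RNAs encoded by mitochondrial DNA and from proteins encoded in the nucleus, made in the cytosol and imported. It translates the few mitochondrially encoded messages, all for subunits of the respiratory chain and the ATP synthase, so every respiring cell needs its small (MRPS) and large (MRPL) subunit proteins together. TGFβ is a cytokine that drives lung epithelial cells toward a mesenchymal state, and PKCiota and PKCzeta are the atypical protein kinase C isoforms that act in epithelial polarity. The genes described here are the nuclear genes of the mitochondrial ribosomal proteins, chosen by symbol alone: MRPL or MRPS, a number and at most 1 letter. Of 18377 genes measured, 73 met this rule, 48 with an MRPL and 25 with an MRPS symbol. By structure 23 of the proteins belong to the small and 50 to the large subunit, since MRPS18A and MRPS30 lie in the large subunit in spite of their names. The rule itself uses no measured value, but the set was chosen with earlier results of these data known. Where a gene had several probe sets, the brightest was used. The 3 probe sets of MRPS18B and the 2 of MRPL20 carried identical values.

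The cells were A549, an established line from a human lung adenocarcinoma, grown in 10% serum and then serum starved. They carried either a control siRNA (siControl) or siRNA against PKCiota and PKCzeta together (siPKCiz). In each arm some cells stayed untreated and others received TGFβ (250 pM) during 1 h, after which it was washed off and low serum (0.2%) followed for another 7 or 23 h; these are called 8 h and 24 h here. Each of the 6 groups had 3 biological replicates, 18 whole-transcript arrays in all. Untreated cells carry no time in the labels, so TGFβ and time in low serum cannot be told apart in the comparisons with them. All values are transcript levels of 1 cell line in bulk, where fewer cells of a kind and less RNA per cell cannot be told apart. The 3 arrays per group limit the precision.

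Sequences around the start sites of these genes are shown. Promoters of nuclear mitochondrial genes are known for binding sites of NRF1, of the ETS factor GABP and of YY1. RefSeq windows (GRCh38.p14, 250 bases before to 50 after each start) were held for 66 of the 73 genes and were searched on both strands for 5 cores, which may overlap. The ETS core CCGGAAG lay in windows of 29 of the 66 (43.9%), against 16.8% of the 14210 genes on the array with a window. The YY1 core AAGATGGCG lay in 12 (18.2%, against 3.36%) and the NRF1 core GCGCATGC in 6 (9.09%, against 4.87%). The E-box CACGTG lay in 9 (13.6%, against 10.9%), and the cAMP response element TGACGTCA in 1 (1.52%, against 3.11%). A match is a run of letters and not a shown binding site. The YY1 core contains the letters ATG, and whether a match covers a translation start was not tested. The 30-base sites below show the YY1 core in capitals. They belong to the 4 genes called lower after 24 h of TGFβ in siControl that hold this core. A link between the core and the depth of a fall was not tested. These genes also had the 4 deepest called falls there and were picked after those values were seen. Each holds the core downstream of its start, in the sense orientation, within bases 9 to 32 counted from 1 at the start.
MRPS18B: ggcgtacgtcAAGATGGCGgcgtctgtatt
MRPL46: gggagaacgaAAGATGGCGgcgcccgtaag
MRPL50: gatctcatcgAAGATGGCGgcgcgatctgt
MRPS18A: taggtttttgAAGATGGCGgccctcaaggc
The sites lie at chr6:30617853-30617882 (plus strand) for MRPS18B and chr15:88467361-88467390 (minus strand) for MRPL46. Those of MRPL50 and MRPS18A lie at chr9:101398576-101398605 and chr6:43687763-43687792, both on the minus strand. Of the 7 genes called lower at 24 h in siControl, 4 held this core, 3 the ETS, 1 the NRF1, 1 the E-box and 0 the cAMP response core. Of the 6 with a window among those called lower in siPKCiz, 1 (MRPL50) held the YY1, 3 the ETS, 1 the E-box and 0 either of the others.

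The 60 bases just before the start are shown for 3 genes that recur below, with the NRF1 core in capitals for MRPS18B (read on the opposite strand, bases -23 to -16) and MRPL32 (bases -39 to -32), and the ETS core for MRPL58 (bases -8 to -2).
MRPS18B: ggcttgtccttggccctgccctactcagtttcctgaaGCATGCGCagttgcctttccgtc
MRPL32: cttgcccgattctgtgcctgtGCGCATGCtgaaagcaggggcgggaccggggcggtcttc
MRPL58: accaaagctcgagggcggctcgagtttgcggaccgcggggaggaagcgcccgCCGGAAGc
These stretches are chr6:30617780-30617839, chr7:42932316-42932375 and chr17:75012610-75012669, all on the plus strand. Another gene starts on the opposite strand within 1000 bases upstream of 24 of the 66 genes. Entries such as LOC105374114 and MRPS30-DT were counted as genes here. The share of all genes with such a neighbour was not taken, so this count has no reference. MRPL46 and MRPS11 form such a pair with each other, with starts 320 bases apart.

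Both siRNA targets were lower in siPKCiz. PRKCI, the gene of PKCiota, was at 2095 to 2818 (deposited intensity) on the 9 siControl arrays and at 457 to 621 on the 9 siPKCiz arrays, a difference of -2.24 ± 0.052 (log2, SE; limma, adjusted p = 1.98e-15). PRKCZ, the gene of PKCzeta, was at 265 to 490 and at 142 to 254, a difference of -1.07 ± 0.14 (adjusted p = 3.43e-05). The fall of PRKCZ was smallest in replicate 1. Untreated, at 8 h and at 24 h, replicate 1 was at 265, 309 and 302 in siControl and at 242, 254 and 206 in siPKCiz. Replicate 2 was at 398, 410 and 472 against 142, 153 and 189. Replicate 3 was at 490, 410 and 408.5 against 162, 152.5 and 152. The median intensity of an array was 156.1 to 160.7, and 72 of the 73 genes exceeded it in at least 1 group; MRPL54 did not. The keratin genes KRT8, KRT18 and KRT19, EPCAM and CDH1 were above the array median on all 18 arrays, while the lung markers NKX2-1, SFTPB and SFTPC were below it on all. Of 9 measured leukocyte, endothelial and fibroblast markers, 6 were below the array median on every array, CD14 was above it on 3 arrays, PDGFRA on 1 and LUM on 14. The summed intensity of the 3 fibroblast markers was 292 to 316 in untreated siControl and 531 to 561 at 24 h. In siPKCiz it was 391 to 429 and 636 to 722. Over the 18 arrays LUM had the widest range of the 3, from 113.9 to 473.8. PDGFRA ran from 82.2 to 183.5 and DCN from 56.0 to 72.5, so the sum does not show a shift of all 3. The 8 summed lung epithelial markers were at 12910 to 14480 in untreated siControl and at 10140 to 12360 at 24 h. In siPKCiz they were at 14030 to 14740 and 11390 to 12720. KRT8 was the largest part of this sum, at 6346 to 9707 over the 18 arrays. EPCAM ran from 294.7 to 1310 and CDH1 from 185.2 to 930.5. The part of these shifts in the results below was not tested.

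The mitochondrial ribosomal protein genes varied little over the 6 groups. The distance between a gene's highest and lowest group mean had a median of 0.297 (log2), against 0.269 over all genes and 0.33 over the 11387 genes above the array median in a group. It reached 0.5 for 2 genes (2.74%), against 17.4% of all genes. These were MRPS18C, one of the vertebrate copies of bacterial S18, with 0.57, and MRPL10, a protein of the stalk that recruits translation factors, with 0.54. MRPL40 (0.49), MRPL24 (0.49) and MRPS18B (0.47) followed. The spread between replicates was like that of other genes, with a median residual SD of 0.119 against 0.123. MRPS18C was the noisiest of these 5, with a residual SD of 0.286, and no comparison called it.

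The order of the groups was uneven. Untreated siPKCiz held the highest mean of 36 of the 73 genes and siPKCiz at 8 h that of 21. The lowest mean lay in siControl at 24 h for 34 genes and in siPKCiz at 24 h for 25. The heat map of all members shows this as pale red columns in siPKCiz before 24 h and pale blue columns at 24 h in both arms.

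**Figure D1:**
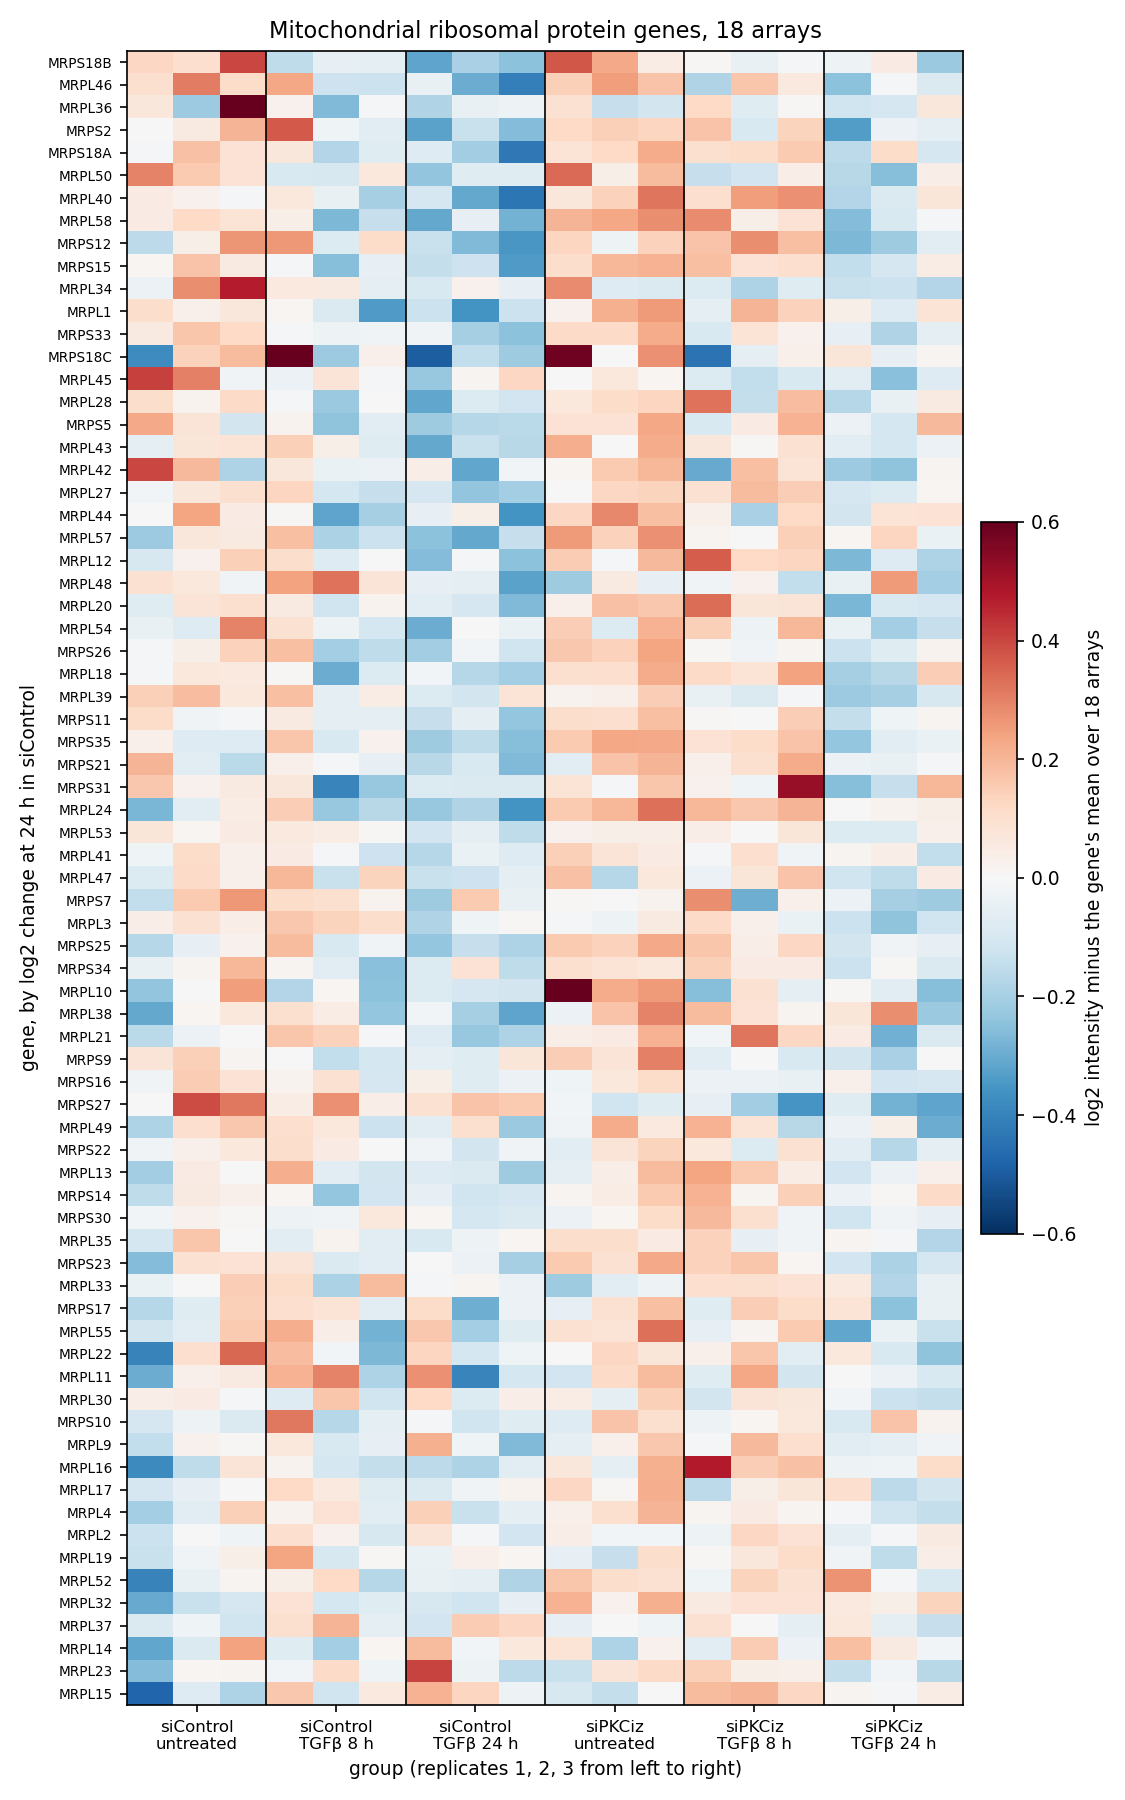
Heat map of the 73 mitochondrial ribosomal protein genes (rows, ordered by their change at 24 h in siControl) on 18 arrays (columns, 6 groups of 3 replicates). Colour gives log2 intensity minus the gene's mean over the arrays, from -0.6 (blue) to 0.6 (red); MRPS18B is the top row and MRPL15 the bottom one.

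After 8 h of TGFβ no mitochondrial ribosomal protein gene was called in siControl (limma, Benjamini-Hochberg adjusted p under 0.05 over 18377 genes), and 7 of 73 were under 0.05 before adjustment. Of all genes 5.17% were called higher and 6.18% lower in this comparison, and 22.9% were under 0.05 before adjustment. Among genes above the array median this last share was 31.4%. The median change of the 73 was -0.0136 (log2), against 0.00223 over all genes. The largest differences were MRPL15 at +0.28 ± 0.098 and MRPL11 at +0.18 ± 0.16 (SE), and MRPL36 at -0.34 ± 0.18 and MRPS18B at -0.29 ± 0.096, the last with an adjusted p of 0.055. MRPL36 was at 853, 701 and 1533 untreated and at 830, 678 and 809 at 8 h, so its difference rests on untreated replicate 3. Without replicate 1 of every group 6 genes were called; without replicate 2 or 3 none was.

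In siPKCiz at 8 h MRPL10 alone was called, 0 higher and 1 lower, against 3.13% of all genes higher and 3.35% lower. Its intensity was 600, 419 and 429 in untreated siPKCiz and 301, 383 and 344 at 8 h. The groups did not overlap, and the first untreated replicate stood well above the others. MRPL10 fell by 28.4% (log2 change -0.48 ± 0.14, adjusted p = 0.040). The call was lost without untreated siPKCiz replicate 1 and under 11 other of the 30 alternatives tried at the same threshold. The median change of the 73 genes was -0.0443.

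After 24 h of TGFβ the mitochondrial ribosomal protein genes of siControl lay mostly below untreated: 7 were called lower and 1 higher, and 59 of 73 had a negative change. The called falls were modest, between 17% and 27.3%. The 7 called lower are 9.59% of the members, against 6.46% of all genes and 9.62% of the 11387 genes above the array median, so this share is at the level of other bright genes. The 1 called higher is 1.37%, against 5.85% of all genes and 8.26% of those above the array median. For 24 of the 73 (32.9%) all 3 arrays at 24 h were below all 3 untreated ones, against 13.6% of all genes and 18.1% of the genes above the array median. The median change was -0.125, against -0.00995 over all genes and -0.025 over the genes above the array median. The share with a negative change was 80.8%, against 52.7% of all genes and 55.4% of those above the array median.

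MRPS18B, a small-subunit protein and another of the S18 copies, had the lowest adjusted p. Its intensity was 1321, 1300 and 1601 untreated, 1091, 1171 and 1167 at 8 h, and 975, 1059 and 1021 at 24 h. All 24 h arrays were below all 8 h arrays, and these below all untreated ones. It fell by 27.3% at 24 h (log2 change -0.46 ± 0.096, adjusted p = 0.0030) and kept its call in 29 of the 30 alternatives at the same threshold. The exception left out replicate 3 of every group, where the change was -0.37. MRPS18A, the large-subunit copy of S18, was at 1466, 1669 and 1568 untreated and at 1400, 1281 and 1098 at 24 h, and fell by 19.9% (log2 change -0.32 ± 0.096, adjusted p = 0.034).

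In the large subunit MRPL46 was at 2260, 2610 and 2283 untreated and at 2050, 1716 and 1589 at 24 h, and fell by 25.4% (log2 change -0.42 ± 0.12, adjusted p = 0.021). Its head-to-head neighbour MRPS11, a homologue of bacterial S11, was at 3766, 3439 and 3471 untreated and at 3173, 3367 and 2975 at 24 h. The arrays of MRPS11 did not overlap either, but its change of -0.17 ± 0.075 missed the threshold (adjusted p = 0.18). MRPL50 was at 4207, 3823 and 3630 untreated and at 2903, 3258 and 3255 at 24 h, and fell by 19.2% (adjusted p = 0.044). MRPL58, also known as ICT1, is a peptidyl-tRNA hydrolase built into the large subunit that can release stalled chains. It was at 1314, 1382 and 1347 untreated and at 1027, 1228 and 1045 at 24 h, and fell by 18.6% (adjusted p = 0.049).

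In the small subunit MRPS15, a homologue of bacterial S15, was at 3167, 3541 and 3265 untreated and at 2841, 2886 and 2483 at 24 h, and fell by 17.8% (adjusted p = 0.035). MRPS33, with no bacterial counterpart, was at 591, 638 and 618 untreated and at 560, 496 and 479 at 24 h, and fell by 17% (adjusted p = 0.024). For both genes every array at 24 h lay below every untreated array.

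MRPL15, a conserved large-subunit protein, was the exception in direction. It was at 1451, 1913 and 1778 untreated and at 2337, 2208 and 1976 at 24 h, and rose by 27.4% (log2 change +0.35 ± 0.098, adjusted p = 0.023). Untreated replicate 1 was the lowest of its 18 arrays, and the groups did not overlap. Its call was lost without that array, and without siControl 24 h replicate 1 or 2. In siPKCiz the same comparison gave +0.09 ± 0.098 (adjusted p = 0.62).

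The count of 8 calls at 24 h in siControl rested on single arrays. It was 3 without untreated siControl replicate 2, 5 without untreated siControl replicate 3, 3 without siControl 24 h replicate 2 and 2 without siControl 24 h replicate 3. Without a replicate number in all groups it was 12 (replicate 1), 1 (replicate 2) and 1 (replicate 3), while the count over all genes went from 2262 to 2872, 761 and 755.

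**Figure D2:**
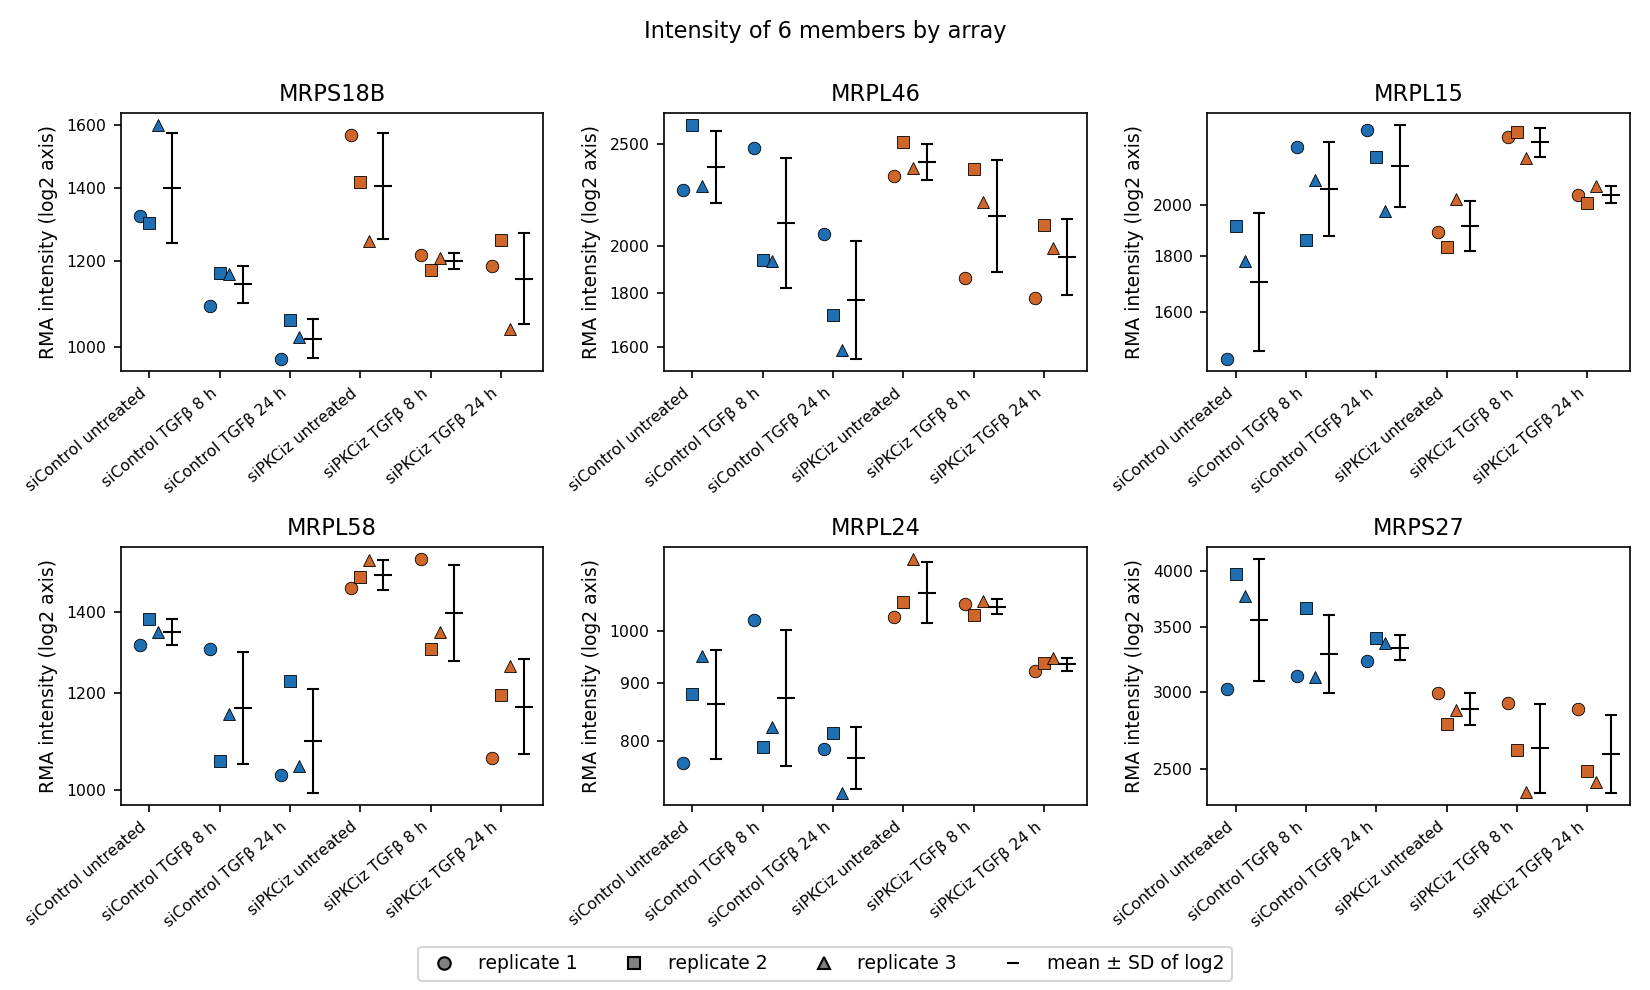
RMA intensity (log2 axis) of MRPS18B, MRPL46, MRPL15, MRPL58, MRPL24 and MRPS27 on each array by group, siControl in blue and siPKCiz in orange; bars give the mean ± SD of the log2 values (n = 3). MRPS18B, MRPL46 and MRPL58 are lower at 24 h than untreated in siControl, MRPL15 is higher, MRPL24 is higher in siPKCiz and MRPS27 is lower in siPKCiz on every array.

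In siPKCiz at 24 h 7 genes were called lower and 0 higher, against 6.09% and 4.65% of all genes. Before adjustment 25 of 73 (34.2%) were under 0.05, against 23.6% of all genes and 31.7% of those above the array median. Among the genes above the array median 9.16% were called lower, near the 9.59% of the members, and 6.49% higher. The change was negative for 69 of 73 (94.5%), against 51.8% of all genes, with a median of -0.154. For 30 genes (41.1%) all arrays at 24 h were below all untreated ones, against 18.2% of all genes. Genes above the array median also sat lower here: their median change was -0.0683, with 64.2% of them negative and 26.5% not overlapping downward.

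MRPL10 had the largest change. It was at 361, 343 and 301 at 24 h against 600, 419 and 429 untreated, and fell by 29.8% (log2 change -0.51 ± 0.14, adjusted p = 0.020). Its call was lost without untreated siPKCiz replicate 1 or siPKCiz 24 h replicate 3, and without replicate 2 or 3 of every group. Leaving out arrays, its change ran from -0.62 to -0.34. In siControl its untreated arrays, at 305, 359 and 427, overlapped those at 24 h, at 340, 335 and 332. The other stalk proteins, MRPL11 and MRPL12, were called in none of the 12 comparisons. MRPL58 was at 1463, 1495 and 1545 untreated and at 1061, 1195 and 1264 at 24 h, and fell by 22% (adjusted p = 0.020). MRPL50 was at 4328, 3507 and 3902 untreated and at 3049, 2870 and 3522 at 24 h, and fell by 19.6% (adjusted p = 0.045). Here 1 array at 24 h exceeded 1 untreated array.

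The other 4 genes were small-subunit ones: MRPS35, MRPS23 and MRPS33, without a bacterial counterpart, and MRPS9, a homologue of bacterial S9. MRPS35 was at 2502, 2631 and 2625 untreated and at 1907, 2137 and 2181 at 24 h, and fell by 19.9% (adjusted p = 0.011). MRPS23 was at 792, 756 and 829 untreated and at 654, 621 and 660 at 24 h, and fell by 18.5% (adjusted p = 0.048). MRPS9 was at 363, 345 and 403 untreated and at 302, 286 and 327 at 24 h, and fell by 17.5% (adjusted p = 0.028). MRPS33 was at 616, 617 and 665 untreated and at 550, 503 and 548 at 24 h, and fell by 15.7% (adjusted p = 0.044). None of these 4 had arrays that overlapped between the groups.

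The count of 7 likewise moved with single arrays of the groups compared. It was 2 without untreated siPKCiz replicate 1, 3 without untreated siPKCiz replicate 3, 1 without siPKCiz 24 h replicate 1 and 3 without siPKCiz 24 h replicate 2. It was also 4 without siControl 8 h replicate 2 and 4 without siControl 24 h replicate 2, which enter through the shared estimate of the spread. Without replicate 1, 2 or 3 in all groups it was 4, 0 and 0.

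The arms share no array, so their 24 h changes can be set side by side. Both changes were negative for 57 of the 73 genes, both positive for 2 and opposite for 14. Across the 73 genes Pearson's r of the changes was 0.54 (a description, since genes of an array are not independent), against 0.847 across all genes. Its size depends on how widely the changes spread, and 2.74% of the members but 17.4% of all genes ranged by at least 0.5 over the groups. The lower r therefore does not show that the members responded less alike between arms than other genes. MRPL58, MRPL50 and MRPS33 were called lower in both arms, 42.9% of either list of 7. These calls were often lost in the alternatives at the same threshold. Of the 9 that keep every array, MRPL58 kept its call in 5 in siControl and 9 in siPKCiz. MRPL50 kept it in 7 and 5, and MRPS33 in 8 and 5. Of the 21 that leave out arrays, these counts were 5 and 15 for MRPL58, 9 and 9 for MRPL50, and 15 and 7 for MRPS33. MRPS18B had -0.28 in siPKCiz against -0.46 in siControl, and MRPL46 -0.30 against -0.42. Neither was called in siPKCiz, where MRPL46 had an adjusted p of 0.11 (limma). MRPS18B in siPKCiz was at 1568, 1420 and 1252 untreated and at 1187, 1254 and 1039 at 24 h, so the groups overlapped. The difference of such changes was tested for every gene as the interaction of siRNA and TGFβ. No mitochondrial ribosomal protein gene was called in it at 8 h or 24 h, and of all genes 0% were at either time. Before adjustment 1 of the 73 (1.37%) was under 0.05 at each time, against 3.4% and 3.84% of all genes. At 24 h the lowest differences between arms were MRPL10 with -0.41 ± 0.19 and MRPL55 with -0.30 ± 0.18, and the highest MRPL36 with +0.34 ± 0.26 and MRPL48 with +0.26 ± 0.16. At 8 h they were MRPS18C with -0.62 ± 0.28 and MRPL10 with -0.34 ± 0.19, and MRPL36 with +0.41 ± 0.26 and MRPS31 with +0.36 ± 0.20. The MRPL10 differences include its high untreated siPKCiz replicate 1, and those of MRPL36 its high untreated siControl replicate 3. With SEs of this size the lack of calls does not show that the arms responded alike.

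**Figure D3:**
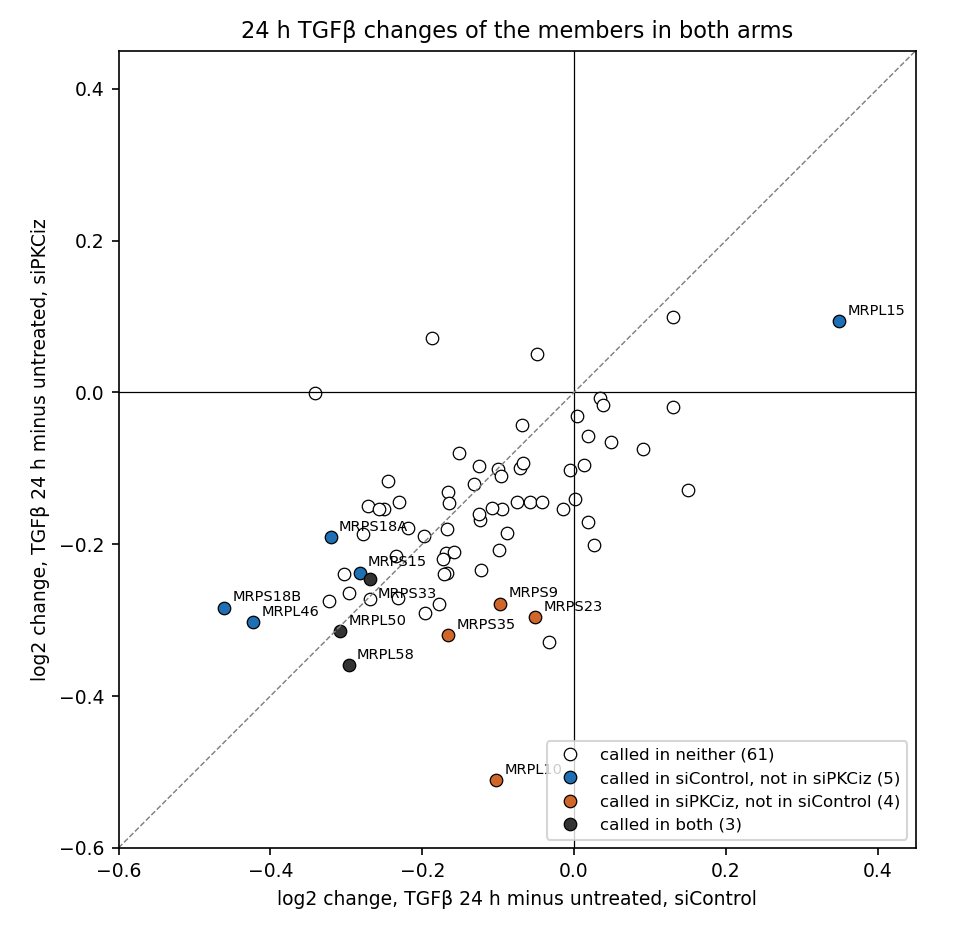
Log2 change at 24 h of TGFβ against untreated of the 73 genes in siControl (x axis) and siPKCiz (y axis), with the line of equal change dashed. Points are filled by where they were called; 57 of 73 lie at the lower left, and 3 were called in both arms.

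Between 8 h and 24 h of TGFβ 0 genes were called in either arm, against 2.41% of all genes in siControl and 0.805% in siPKCiz. Before adjustment 11 and 15 of the 73 (15.1% and 20.5%) were under 0.05, against 13.6% and 12.2% of all genes. Among genes above the array median these shares were 17.3% and 15.4%. The change was negative for 59 genes (80.8%) in siControl and 68 (93.2%) in siPKCiz, with medians of -0.0886 and -0.126. Of genes above the array median 50% and 62.5% were negative, with medians of -6.65e-05 and -0.0433. Of all genes 53.5% and 52.6% were negative. The lowest in siControl were MRPS18C (-0.44 ± 0.20) and MRPL48 (-0.36 ± 0.11). In siPKCiz they were MRPS12 (-0.39 ± 0.11, adjusted p = 0.096), the protein of the decoding centre, and MRPL12 (-0.38 ± 0.096, adjusted p = 0.073), which forms the stalk with MRPL10. The highest in siControl were MRPL14 (+0.17 ± 0.12) and MRPS31 (+0.10 ± 0.14), and in siPKCiz MRPS18C (+0.17 ± 0.20) and MRPL14 (+0.06 ± 0.12).

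The level of the whole set was also taken on each array. The median over the 73 genes of log2 intensity minus the gene's own mean was -0.0438, 0.0342 and 0.0585 in untreated siControl, 0.07, -0.0591 and -0.0623 at 8 h, and -0.0822, -0.0923 and -0.116 at 24 h. In siPKCiz it was 0.0805, 0.0781 and 0.167 untreated, 0.0313, 0.0657 and 0.0812 at 8 h, and -0.0665, -0.0756 and -0.0482 at 24 h. In both arms every array at 24 h lay below every untreated array of that arm. At 8 h in siControl replicate 1 was high and replicates 2 and 3 were low. The median of all genes stayed between -0.0215 and 0.00946, and that of genes above the array median between -0.0582 and 0.0705. The genes above the array median were also low on siControl 8 h replicates 2 and 3 (-0.0544 and -0.0563) and on siControl 24 h replicate 3 (-0.0582). Whether this shift of brighter genes has a part in the members' values was not tested.

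**Figure D4:**
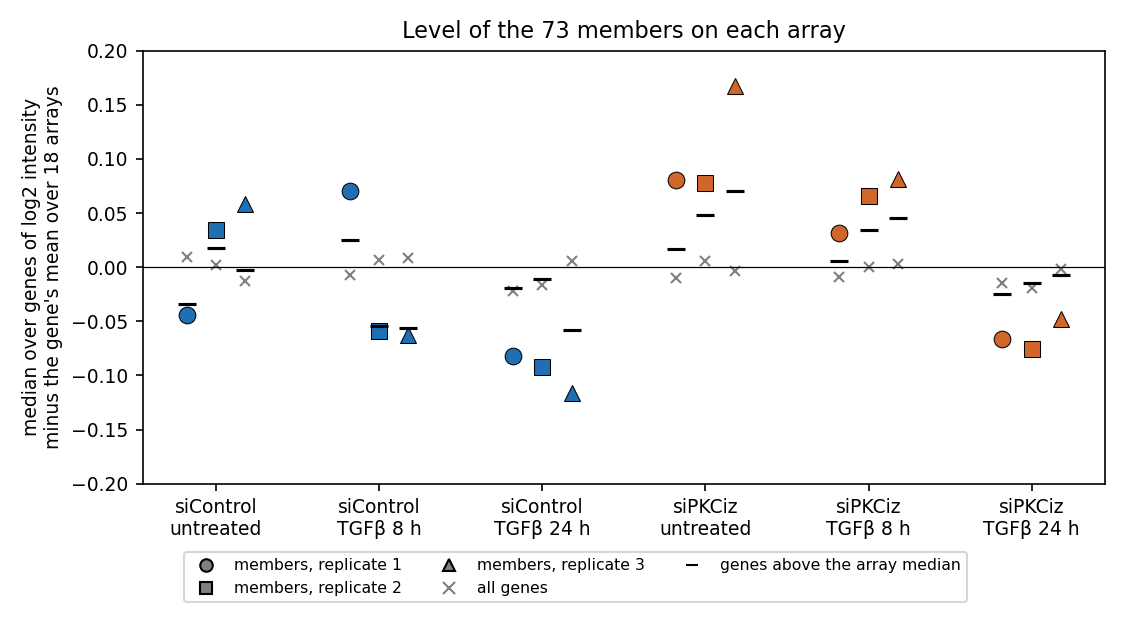
Median over the 73 genes of log2 intensity minus the gene's mean over 18 arrays (filled symbols), beside the same median over all genes (crosses) and over genes above the array median (dashes), for each replicate of the 6 groups. The members lie between -0.116 and -0.0482 on the 6 arrays at 24 h and between 0.0313 and 0.167 on the 6 siPKCiz arrays before 24 h.

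Silencing of the atypical isoforms went with slightly higher levels. Averaged over the 3 conditions, 11 genes were called higher in siPKCiz and 1 lower, against 11.8% and 8.17% of all genes; 56 of 73 had a positive change, with a median of 0.0608. The share called higher, 15.1%, lay between that of all genes and the 18.1% of genes above the array median. The median over genes above the array median was 0.0417, with 61.2% of them positive. The increases were small, from 10.4% to 22.3%.

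MRPL24, a conserved protein near the exit of the polypeptide tunnel, had the largest increase. It was at 764, 880 and 951 in siControl untreated, 1023, 789 and 823 at 8 h and 787, 813 and 719 at 24 h. In siPKCiz it was at 1029, 1061 and 1159, at 1058, 1033 and 1064, and at 921, 937 and 946. In each condition all 3 siPKCiz arrays lay above all 3 siControl arrays, and the mean difference was 22.3% (log2 0.29 ± 0.056, adjusted p = 0.0011). MRPL16, a conserved protein of the large-subunit core, was 18.2% higher (adjusted p = 0.012). MRPL40 (16%), MRPL57 (15.4%) and MRPL32 (14.8%) followed. MRPL32 is cut by the matrix m-AAA protease before it joins the ribosome.

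The other 6 were MRPL1 (13.5%), MRPL58 (12.4%), MRPS15 (11%), MRPS25 (11%), MRPS14 (10.9%) and MRPS35 (10.4%), with adjusted p from 0.027 to 0.037. MRPL58 and MRPS15, called lower at 24 h in siControl, and MRPL58 and MRPS35, called lower at 24 h in siPKCiz, are thus also among these. In all 12 called genes except MRPS27 the arms overlapped over the 9 arrays each.

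MRPS27, a pentatricopeptide repeat protein of the small subunit, went the other way. It was at 3026, 3970 and 3772 in untreated siControl, 3117, 3661 and 3115 at 8 h and 3229, 3412 and 3372 at 24 h. In siPKCiz it was at 2997, 2784 and 2880, at 2924, 2619 and 2370, and at 2882, 2491 and 2429. All 9 siPKCiz arrays lay below all 9 siControl arrays, as for 0.55% of all genes. MRPS27 was 20.5% lower (log2 change -0.33 ± 0.061, adjusted p = 7.97e-04). Its differences were -0.31, -0.32 and -0.36 untreated, at 8 h and at 24 h, with adjusted p of 0.13, 0.081 and 0.070. Its head-to-head neighbour PTCD2, which starts 133 bases away and was looked up after these values were seen, had -0.03 ± 0.059 (adjusted p = 0.76).

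The 12 calls over the mean of the conditions fell to 0 without replicate 2 and to 0 without replicate 3 of all groups, and rose to 23 without replicate 1. PRKCZ fell least in replicate 1, and whether this has a part in the counts was not tested. All genes went from 3664 calls to 837, 838 and 5774. The difference for MRPS27 was -0.25 and -0.29 without replicate 2 or 3, and that for MRPL24 was +0.29 and +0.26. Single arrays that moved the 12 by over 1.5 times were siControl 8 h replicate 2 (7 calls), siControl 8 h replicate 3 (7) and untreated siPKCiz replicate 3 (6).

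Within single conditions few silencing differences passed. In untreated cells MRPL32 was called higher, 1 gene against 2.12% of all genes higher and 1.45% lower. It was at 563, 635 and 648 in siControl and at 802, 708 and 807 in siPKCiz, with no overlap, a rise of 25.6% (log2 0.33 ± 0.078, adjusted p = 0.023). The call was lost without untreated siControl replicate 1 or 2, untreated siPKCiz replicate 1 or untreated siPKCiz replicate 3. The change was positive for 60 of 73 genes (82.2%) in untreated cells, with a median of 0.0718. Genes above the array median also sat higher there, with 62.2% positive and a median of 0.0511. Of all genes 49.9% were positive. At 8 h 0 genes were called, against 3.52% of all genes higher and 1.9% lower. Before adjustment 12 of 73 (16.4%) were under 0.05, against 21.3% of all genes. MRPS31 (+0.36 ± 0.14) and MRPL16 (+0.34 ± 0.11) were highest there, and MRPS27 and MRPS18C (-0.31 ± 0.20) lowest. At 24 h 0 were called, against 1.51% and 1.68% of all genes. Before adjustment 5 (6.85%) were under 0.05, against 15.6% of all genes. MRPS18C (+0.30 ± 0.20) and MRPL24 (+0.28 ± 0.097) were highest, and MRPS27 and MRPL23 (-0.18 ± 0.12) lowest. The number with a positive change was 56 (76.7%) at 8 h and 42 (57.5%) at 24 h. Of genes above the array median 62.3% and 54.3% were positive, and of all genes 48.3% and 51%.

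**Figure D5:**
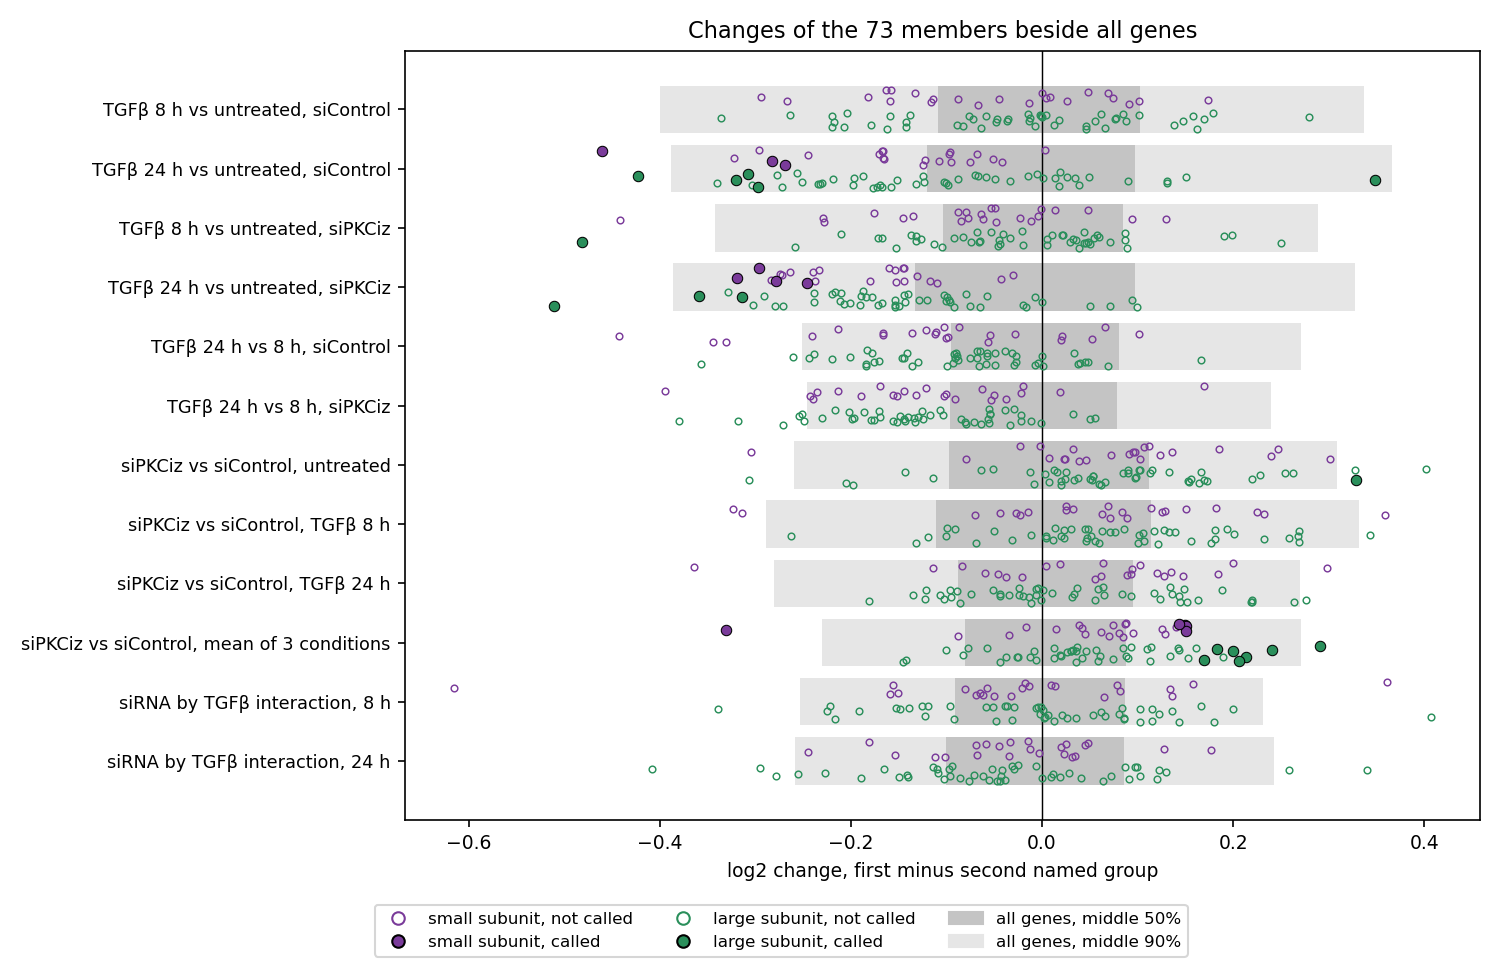
Log2 changes of the 73 genes in 12 comparisons (rows), small-subunit genes in purple and large-subunit genes in green, filled where called at an adjusted p under 0.05. Grey bars give the middle 50% and 90% of all 18377 genes; most members lie within the 90% bars, and most lie left of 0 in the rows of 24 h against untreated and right of 0 in the rows of siPKCiz against siControl.

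Both subunits had the same direction at 24 h. In siControl 3 of the 23 small-subunit genes (13%) and 4 of the 50 large-subunit genes (8%) were called lower, against 6.46% of all genes and 9.62% of those above the array median, with median changes of -0.165 and -0.124. In siPKCiz 4 of 23 (17.4%) and 3 of 50 (6%) were called lower, against 6.09% and 9.16%, with medians of -0.18 and -0.154, and all 23 small-subunit changes were negative. The members were also split into proteins conserved with bacteria and proteins that are specific to mitochondria or strongly diverged, the S18 copies MRPS18A and MRPS18B among the latter. Of the 43 conserved proteins 1 (MRPS15) was called lower and 1 (MRPL15) higher at 24 h in siControl, and of the 30 specific or diverged proteins 6 were called lower. Arrays did not overlap, in the downward direction, for 20.9% of the conserved and 50% of the specific or diverged genes, against 18.1% of the genes above the array median. In siPKCiz these shares were 37.2% and 46.7%, against 26.5%, with 2 and 5 genes called lower. This split was drawn with earlier results known, and the difference between the classes was not tested.

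Other gene lists of mitochondrial protein synthesis are read against the same shares: at 24 h 6.46% of all genes were called lower in siControl and 6.09% in siPKCiz (9.62% and 9.16% of those above the array median), and with silencing 11.8% were called higher (18.1%) and 8.17% lower (10.3%). Of 4 measured mitoribosomal proteins with other symbols none was called in any comparison, and their medians at 24 h were -0.0953 in siControl and -0.0824 in siPKCiz; before adjustment 0 and 1 were under 0.05. Of 26 genes for ribosome assembly and rRNA modification, 1 was called lower at 24 h in siControl and 2 in siPKCiz, with medians of -0.0741 and -0.13. MRM1, a methyltransferase of the large ribosomal RNA, fell by 0.60 (log2) in siControl and by 0.49 in siPKCiz (adjusted p = 5.12e-04 and 0.0036), more than any ribosomal protein gene in siControl. In the mean silencing difference 5 of the 26 were higher and 0 lower, led by TFB1M (+0.41 ± 0.080), which methylates the small ribosomal RNA, and by the GTPase MTG2 (+0.39 ± 0.068).

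Of 18 translation factors 3 (16.7%) were called lower at 24 h in siControl and 1 (5.56%) in siPKCiz, with medians of -0.142 and -0.171. The initiation factor MTIF2 (-0.32) and the ribosome recycling factor MRRF (-0.27) were among the 3, and TACO1, a translational activator of COX1, was the 1 (-0.33). Silencing went with 5 higher and 1 lower. The lower one was the elongation factor GFM1 (-0.34 ± 0.070, adjusted p = 0.0023). Of 19 genes that charge mitochondrial tRNAs, 4 (21.1%) were lower at 24 h in siControl and 3 (15.8%) in siPKCiz, with medians of -0.14 and -0.191, and 8 (42.1%) were higher and 0 lower with silencing. SARS2, which starts 181 bases from MRPS12 on the opposite strand, fell by 0.42 in siControl at 24 h (adjusted p = 0.0057). MRPS12 had -0.30 ± 0.11 there, with an adjusted p of 0.081.

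Regulators of mitochondrial DNA expression and biogenesis had a median of 0.0228 in siControl at 24 h, with 0 of 18 higher and POLG2 (-0.40), a subunit of the mitochondrial DNA polymerase, lower. In siPKCiz the median was -0.0734, with 0 higher and SSBP1 (-0.30), the mitochondrial single-stranded DNA binding protein, lower. At 8 h 5.17% of all genes were called higher and 6.18% lower in siControl, and 3.13% and 3.35% in siPKCiz. Of the 18 regulators 2 (11.1%) were called higher at 8 h in siControl, MYC (+0.45) and GABPB1 (+0.35), a subunit of the GABP factor. POLG2 (-0.37) was called lower. In siPKCiz GABPB1 (+0.40) was called higher and 0 lower. With silencing 3 were higher, POLG (+0.26), ESRRA (+0.19) and TWNK (+0.18), and 0 lower. The list of mitochondrial chaperones and proteases held 13 genes, the transcription factor ATF5 among them. Of these 13, 3 (23.1%) were lower at 24 h in each arm, TRAP1, an HSP90 family chaperone, in both (-0.28 and -0.34). Of 68 nuclear respiratory chain subunits 3 (4.41%) were lower in siControl (median -0.103) and 2 (2.94%) in siPKCiz (median -0.137), both below the shares of all genes. NDUFV2, a subunit of complex I, was called in both arms (-0.47 and -0.49). With silencing 7 were higher and 1 lower, the last COX5A (-0.57). The 61 cytosolic ribosomal protein genes had medians of -0.053 in siControl, with 1 higher (RPL27A) and 0 lower, and -0.104 in siPKCiz, with 0 higher and 1 lower (RPL23). For 4.92% of them in siControl and 16.4% in siPKCiz all arrays at 24 h lay below all untreated ones, against 32.9% and 41.1% of the mitochondrial ribosomal protein genes. These lists were compared by counts and medians only.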

How the data were processed

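RNA of 18 A549 samples was measured on Affymetrix whole-transcript arrays. The deposited values are RMA intensity on a linear scale, made by the authors with RMA and Partek per the submitters' processing notes, with no versions in the sources used here; log2 was taken here. RMA sets arrays to a common distribution, so a shift shared by all genes cannot be seen. Of 28869 probe sets 19310 had 1 symbol in GEO's platform annotation, 1752 several and 7807 none; 4 that list a member symbol with others were left out. The brightest probe set per symbol gave 18377 genes. Group means were fitted over all arrays with limma 3.58.1 (R 4.3.3), with Benjamini-Hochberg adjustment over 18377 genes in each of 12 comparisons. On simulated data for TGFβ at 24 h in siControl over 18377 genes, 72% of changes of 0.5 log2 and 98% of 1 log2 were recovered. Of the simulated calls 6.08% were false. The noise was drawn independently for each gene. All called members of this comparison changed by less than 0.5 log2, so these shares do not give their recovery. Named were MRPS18B, the siRNA targets, every called member where at most 12 were called, the 2 highest and 2 lowest where none was, the 5 widest ranges and up to 4 called genes of other lists; others were chosen after their values were seen. The members, lists and classes were chosen with earlier results of these data known. Alternatives were all or averaged probe sets, only the groups compared, array weights, a trend with robust variance, centring by the median, quantile scaling, leaving out dim genes, a threshold of 0.01, a replicate block, and each array or replicate number left out.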

Additional observations from a re-analysis of the deposited data

How the results depend on the processing

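No called change of a mitochondrial ribosomal protein gene reversed in any alternative. Of 29 called changes 11 kept their call in all 9 alternatives that keep every array and the threshold of 0.05, and 0 kept it in all 30 alternatives at that threshold, the 21 that leave out arrays included. The threshold of 0.01 is given apart, as counts. Counts of called genes are given against those reported, and the causes were not tested. TGFβ at 24 h in siControl, 8 calls: 4 with a replicate block, 17 with array weights, 2 with only the groups compared, 1 at an adjusted p under 0.01, and 1 to 12 leaving out arrays. TGFβ at 24 h in siPKCiz, 7 calls: 4 with the replicate block, 12 without dim probe sets, 3 after quantile normalization, 11 after median centring, 14 with array weights, 0 at 0.01, and 0 to 10 leaving out arrays. TGFβ at 8 h in siControl, 0 calls: 1 without dim probe sets, 1 after quantile normalization, 8 with array weights, and 0 to 6 leaving out arrays. TGFβ at 8 h in siPKCiz, 1 call: 2 with array weights, 0 with the replicate block, after quantile normalization, with only the groups compared or at 0.01, and 0 to 1 leaving out arrays. For 24 h against 8 h, 0 calls: 1 in siControl after quantile normalization, and 1 in siPKCiz after median centring and 1 with array weights. Silencing in untreated cells, 1 call: 2 without dim probe sets, 8 with array weights, 0 with only the groups compared or at 0.01, and 0 to 4 leaving out arrays. Silencing at 8 h, 0 calls: 10 with array weights, 0 to 7 leaving out arrays. Silencing at 24 h, 0 calls: 1 with array weights, 0 to 4 leaving out arrays. Mean silencing difference, 12 calls: 22 with array weights, 3 at 0.01, and 0 to 23 leaving out arrays. The replicate block moved no other count of called genes by over 1.5 times; the numbers share no stated batch, and over 45 same-number pairs the correlation of deviations ran from -0.514 to 0.258, with 0 of 18 arrays closest to their own number. With 3 arrays per group, changes smaller than those called can be missed.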
